A study of Mus musculus with 60 samples.

Results

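The T cell receptors of donor CD4+ T cells that lacked STAT3 were compared with those of wild-type (WT) donor CD4+ T cells that had entered liver and gut after transplantation. The comparison was defined by the labels: all TCR alpha (TCRA) and TCR beta (TCRB) libraries of CD4+ T cells from liver or gut, numbers 1 and 2, with WT or STAT3-deficient (STAT3ko) donors. These were 16 of the 60 libraries of the study, 4 WT and 4 STAT3ko for each chain, and each STAT3ko library was paired by tissue and number with a WT library.

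Recipients in both groups were lethally irradiated WT BALB/c mice. All of them received T cell-depleted bone marrow from WT C57BL/6 donors together with C57BL/6 donor T cells, a graft that crosses a major histocompatibility barrier and can cause graft-versus-host disease (GVHD). Donor T cells were WT, or came from STAT3 fl/fl CD4-Cre mice. In that strain Cre is driven by a CD4 promoter, which is active from the double-positive stage of the thymus onwards, so that both CD4+ and CD8+ T cells lose STAT3. The bone marrow of the graft was WT in both groups. On day 6 after hematopoietic cell transplantation (HCT), lymphocytes were pooled from 3 recipients for each sample, and donor-type (H-2Kb+) CD4+ T cells were sorted. WT and STAT3ko donor CD4+ T cells from spleen, labelled as taken before HCT, gave 1 library per genotype and chain and are given here as side values only. Donor age was not given in the sources used here. Receptor libraries do not measure the Stat3 transcript or CD4, so neither the deletion nor the sorted cell type could be checked in these values.

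A T cell receptor is a pair of alpha and beta chains, each built in the thymus by joining a variable (V) to a joining (J) segment, with a diversity segment between them in the beta chain. The joint encodes the complementarity determining region 3 (CDR3), the loop that lies over the presented peptide and that differs most between T cells. The alpha locus can rearrange repeatedly: the first joins tend to use the J segments nearest the V segments, which carry high TRAJ numbers, and later joins move to low TRAJ numbers near the constant gene. STAT3 is the transcription factor through which interleukin-6, interleukin-21 and interleukin-23 act, and it is known for its need in Th17 and follicular helper T cells and in T cell survival.

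In the GENCODE annotation of GRCm38 (mm10), all 56 J segment names of the tables were found. The TRAJ array runs on the plus strand of chromosome 14 from TRAJ61 (chr14:54155005-54155076) to TRAJ1 (chr14:54218814-54218842), just before the constant exons of TRAC (chr14:54220521-54224206). The TRBJ segments lie on the plus strand of chromosome 6 in 2 clusters, TRBJ1-1 to TRBJ1-7 (chr6:41533864-41535687) before TRBC1 and TRBJ2-1 to TRBJ2-7 (chr6:41542754-41543856) before TRBC2.

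Receptors with the same CDR3 residues, V segment and J segment count as 1 clonotype. The clonotypes that differed most steadily between the genotypes are shown with the CDR3 nucleotide sequence that the deposited tables gave for them. They were picked from the same values that are described further on, where no clonotype passed adjustment. Each sequence runs 5′ to 3′ from the cysteine codon to the last codon of the CDR3, and capitals mark the core, without the first 3 and last 3 codons, which is the stretch whose residues were counted. Listed first are those higher and then those lower in STAT3ko in all 4 pairs, for TCRA and then for TCRB.
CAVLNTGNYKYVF, TRAV7-5 with TRAJ40, higher: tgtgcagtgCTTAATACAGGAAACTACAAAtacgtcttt
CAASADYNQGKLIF, TRAV14D-2 with TRAJ23, higher: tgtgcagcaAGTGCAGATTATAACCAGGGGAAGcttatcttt
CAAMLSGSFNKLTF, TRAV14D-2 with TRAJ4, lower: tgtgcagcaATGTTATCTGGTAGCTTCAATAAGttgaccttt
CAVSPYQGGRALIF, TRAV7-5 with TRAJ15, lower: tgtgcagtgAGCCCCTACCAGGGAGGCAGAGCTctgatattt
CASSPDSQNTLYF, TRBV16 with TRBJ2-4, higher: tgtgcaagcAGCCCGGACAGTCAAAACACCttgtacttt
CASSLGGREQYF, TRBV16 with TRBJ2-7, higher: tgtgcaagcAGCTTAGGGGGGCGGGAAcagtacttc
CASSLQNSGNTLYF, TRBV16 with TRBJ1-3, lower: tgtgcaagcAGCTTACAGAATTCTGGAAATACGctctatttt

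The TCRA table listed 62533 clonotypes, of which 54366 were in the 8 libraries compared, and the TCRB table listed 85775, of which 69637 were in these 8. Only fractions of reads are given, not counts. Depth is therefore not stated, and no counting interval was computed. Values of TCRA clonotypes found in all 8 libraries lay close to whole multiples of a smallest step per library. In percent of listed frequency, the steps were 0.000266%, 0.000258%, 0.000358% and 0.000271% in WT liver 1, liver 2, gut 1 and gut 2. In STAT3ko they were 0.000323%, 0.000301%, 0.000348% and 0.000211%. Whether 1 step is 1 read was not tested. The tables listed only clonotypes found in at least 2 libraries. The listed share of all reads was 91.9% ± 6.99 (SD, n = 4) for WT and 93.0% ± 6.47 (n = 4) for STAT3ko libraries in TCRA, and 77.1% ± 19.8 and 79.0% ± 20.4 for TCRB, with the lowest TCRB shares in gut 2 (47.8% in WT, 49.1% in STAT3ko). Unless stated otherwise, percentages below are of the listed frequency of a library. In TCRB, 18.3% ± 8.49 (WT) and 17.0% ± 9.71 (STAT3ko) of the listed frequency had TRBV26 and a sequence that began upstream of the usual cysteine. CDR3 lengths and residues were therefore taken from sequences that ran from C to F or W.

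Before the genotypes were compared, the libraries were compared with each other by the frequency they shared, found by adding up, clonotype by clonotype, the lower of both libraries' frequencies. Liver 1 stood apart, since it shared 49.3% of its TCRA frequency with the spleen library of WT and 48.9% of STAT3ko, whereas liver 2 shared 23.4% and 23.2%. The same values for TCRB were 43.2% and 43.0% for liver 1, and 8.36% and 7.43% for liver 2. Gut 1 was also closer to spleen than gut 2, at 34.8% (WT) and 35.1% (STAT3ko) against 24.3% and 20.7% in TCRA, and at 22.8% and 19.9% against 8.49% and 5.10% in TCRB. Closeness to spleen thus went with number 1 in both tissues and both genotypes. The TRAJ number, the V-proximal TRAJ range and the directions shared with spleen are therefore also given without liver 1 or within number 2 (a division chosen after the data were seen), and the part of this closeness in them was not tested. WT and STAT3ko libraries of the same tissue and number shared 24.5% to 39.6% in TCRA and 7.87% to 15.4% in TCRB, and replicates 1 and 2 of the same tissue and genotype shared 23.9% to 38.7% and 7.69% to 14.97%. The ranges of the 2 kinds of comparison overlapped. V-J usage gave the same picture: 20.5 to 34.0 percentage points of TCRA usage differed between the genotypes and 23.1 to 33.6 between replicates, and for TCRB 12.9 to 20.1 and 14.2 to 22.1. The highest Pearson r across clonotypes between any pair of the 8 libraries was 0.619 in TCRA and 0.446 in TCRB, so no library was a copy of another.

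Liver and gut of the same genotype and number shared less in STAT3ko than in WT at both numbers. In TCRA, liver and gut shared 49.8% in WT and 38.4% in STAT3ko for number 1, and 34.2% and 23.5% for number 2. In TCRB, they shared 37.4% and 23.9% for number 1, and 12.5% and 6.39% for number 2. With 2 values per genotype and chain no test was made, and the numbers of listed clonotypes, given next, were lower in the same STAT3ko libraries.

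Fewer clonotypes were listed for STAT3ko than for WT CD4+ T cells in every pair. TCRA libraries of WT listed 19423 clonotypes in liver 1, 22620 in liver 2, 27874 in gut 1 and 13102 in gut 2. The STAT3ko libraries listed 13377, 17209, 22187 and 6887 in the same order, a difference of -5840 ± 361 (mean and SD of 4 paired differences; lower in 4 of 4 pairs). The groups overlapped, since the WT libraries alone ranged from 13102 to 27874. For TCRB, the WT libraries listed 19151, 23965, 29839 and 8916 clonotypes, and the STAT3ko libraries 13604, 18174, 21395 and 3975, again lower in 4 of 4 pairs, with a difference of -6181 ± 1551. An exact two-sided sign-flip permutation test over 4 pairs cannot give a p below 0.13 (2 of 16 arrangements), and both differences reached that value (p = 0.13 each). The test takes the 4 pairs as independent, although liver and gut of the same number may come from the same recipients, which is not stated. In spleen, the number of listed clonotypes was not lower in STAT3ko (13541 in WT and 14747 in STAT3ko for TCRA, 14052 and 14224 for TCRB). The number of clonotypes found depends on the reads and cells behind a library, which are not stated. The TCRA steps given above were larger in STAT3ko than in WT in both liver pairs and smaller in both gut pairs. The part of reads and cells in the lower numbers of STAT3ko was not tested.

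The Shannon effective number of clonotypes, which is how many clonotypes of equal size would have that entropy, weighs clonotypes by their frequency and was also lower in STAT3ko in 4 of 4 pairs. In TCRA it was 6335, 7498, 10880 and 5455 in the WT libraries of liver 1, liver 2, gut 1 and gut 2, and 4313, 6336, 9224 and 2727 in STAT3ko, a mean difference of -1892 ± 659 (exact sign-flip permutation p = 0.13). In TCRB, the effective number was 7228, 9460, 14626 and 4320 in WT and 4719, 7369, 10930 and 1531 in STAT3ko, a mean difference of -2771 ± 681 (exact permutation p = 0.13). The inverse Simpson index, which weighs frequent clonotypes most, was lower in STAT3ko in 3 of 4 TCRA pairs only: it was 2583, 2859, 4159 and 2549 in WT and 1768, 2928, 4137 and 1251 in STAT3ko, so that gut 1 hardly differed and liver 2 was higher (exact permutation p = 0.375). In TCRB it was lower in 4 of 4 pairs, at 2608, 3431, 4971 and 1520 in WT and 2003, 3217, 4070 and 671 in STAT3ko (exact permutation p = 0.13). STAT3ko gut 2 had the lowest value of all 8 libraries in each of these counts and indices, for both chains. Like the number listed, these measures depend on depth, and the part of depth in them was not tested. The spleen libraries had effective numbers of 3557 (WT) and 3760 (STAT3ko) for TCRA, and 3916 and 3845 for TCRB.

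Clonality, which is 1 minus the entropy divided by its maximum and which is 0 when all clonotypes are equally frequent, did not move with the genotype in the same way in all pairs. In TCRA it was 0.102 ± 0.0114 in WT and 0.104 ± 0.0129 in STAT3ko, higher in 2 of 4 pairs (exact sign-flip permutation p = 0.750, two-sided). In TCRB it was 0.0850 ± 0.0132 and 0.0964 ± 0.0218, higher in 2 of 4 pairs (exact permutation p = 0.5). The 100 most frequent clonotypes held 12.1% ± 1.76 of the listed TCRA frequency in WT and 14.3% ± 4.24 in STAT3ko, higher in 3 of 4 pairs (exact permutation p = 0.375). For TCRB they held 11.6% ± 2.59 and 15.4% ± 8.48, higher in 3 of 4 pairs (exact permutation p = 0.375). The gut 2 pair carried most of both differences: its top 100 share was 13.0% in WT and 19.1% in STAT3ko for TCRA, and 13.5% and 27.3% for TCRB. Without that pair the difference in top 100 share was 0.797 percentage points for TCRA and 0.524 for TCRB, against 2.14 and 3.85 with it. For 12 such summary values tested (6 per chain), the smallest Benjamini-Hochberg adjusted p was 0.900.

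Other views of the large clonotypes gave the same direction in some cases only. TCRA clonotypes above 0.1% of the listed frequency numbered 75, 55, 28 and 57 in the WT libraries of liver 1, liver 2, gut 1 and gut 2 and 99, 58, 35 and 128 in STAT3ko, more in 4 of 4 pairs (exact permutation p = 0.13). In TCRB their numbers were 59, 39, 19 and 49 in WT and 91, 45, 9 and 185 in STAT3ko, more in 3 of 4 pairs. Spleen held 119 and 117 such TCRA clonotypes. The Gini index of TCRB, a measure of inequality, was 0.622 ± 0.0407 in WT and 0.654 ± 0.0529 in STAT3ko, higher in 4 of 4 pairs (exact permutation p = 0.13), while that of TCRA was 0.684 ± 0.0309 and 0.685 ± 0.0284, higher in 2 of 4.

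**Figure D1:**
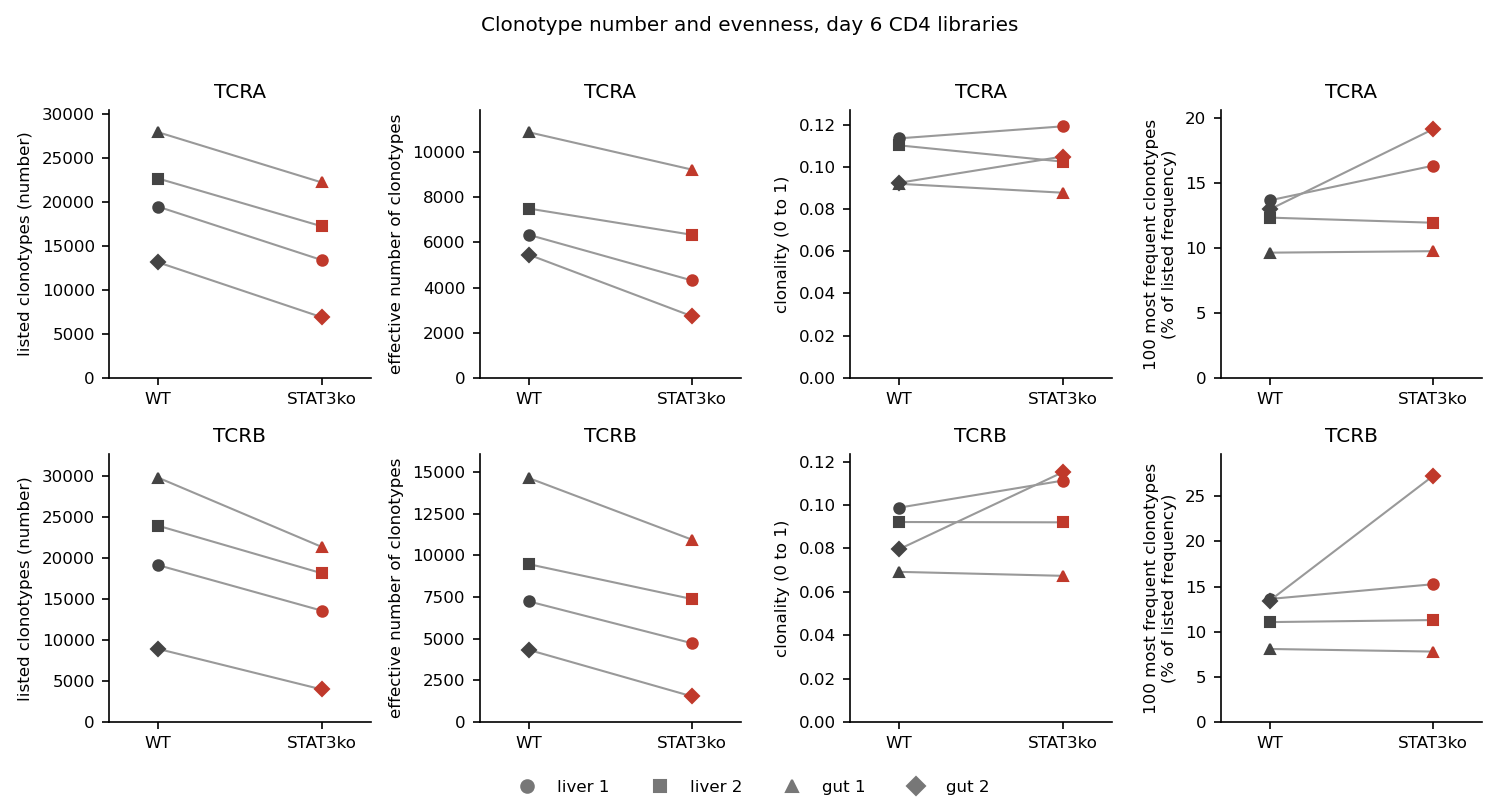
Listed clonotypes, effective number of clonotypes, clonality and top 100 share (percent of listed frequency) in WT and STAT3ko CD4 libraries, TCRA above and TCRB below. Each point is 1 library, and lines join the 4 pairs of tissue and number. The effective number was lower in STAT3ko in all 4 pairs of both chains, whereas clonality went either way.

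J segment use was examined next. Along the TRAJ array, STAT3ko CD4+ T cells had a higher mean TRAJ number than WT cells in every pair, that is, a usage shifted toward the V end. Mean TRAJ number, the frequency-weighted mean of the numbers in the segment names, was 28.8, 28.9, 28.6 and 29.0 in the WT libraries of liver 1, liver 2, gut 1 and gut 2, and 30.1, 29.4, 29.8 and 29.3 in STAT3ko. All 4 STAT3ko libraries lay above all 4 WT libraries. The paired difference was 0.792 ± 0.462 segments (28.8 ± 0.148 against 29.6 ± 0.354; higher in 4 of 4 pairs), with an exact sign-flip permutation p of 0.13, the smallest that 4 pairs allow, and an adjusted p of 0.900 over the 12 summary values. By an exact permutation test within tissue, which ignores the numbers, p was 0.0556, the smallest its 36 arrangements allow. Without the liver 1 pair the difference was 0.647. By number, it was 1.23 in liver and 1.13 in gut for number 1, the libraries closer to spleen, and 0.519 and 0.286 for number 2, a mean of 1.18 against 0.402. The difference between the numbers was not tested. In spleen, where the cells had not met the recipient if the labels hold, the mean TRAJ number was 28.2 in WT and 29.5 in STAT3ko, a difference of the same sign with 1 library per genotype.

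The array was divided into 3 ranges by number. TRAJ41 to TRAJ61, the V-proximal range, took 19.6%, 20.4%, 19.6% and 19.9% in the WT libraries of liver 1, liver 2, gut 1 and gut 2 and 22.8%, 20.6%, 21.5% and 20.9% in STAT3ko, higher in 4 of 4 pairs and without overlap between the groups (difference 1.58 ± 1.32 percentage points, exact permutation p = 0.13). The mean difference was 2.57 percentage points for number 1 and 0.585 for number 2. TRAJ1 to TRAJ20, next to the constant gene, took 26.0%, 25.8%, 27.0% and 25.7% in WT and 23.6%, 24.0%, 24.1% and 25.8% in STAT3ko, lower in 3 of 4 pairs and about equal in gut 2 (exact permutation p = 0.250). The middle range, TRAJ21 to TRAJ40, differed by 0.172 ± 1.36 percentage points and was higher in 2 of 4 pairs (exact permutation p = 0.875). Spleen showed the same order, with 18.6% in WT and 21.8% in STAT3ko for the V-proximal range, and 28.1% and 24.8% for the range next to the constant gene.

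**Figure D2:**
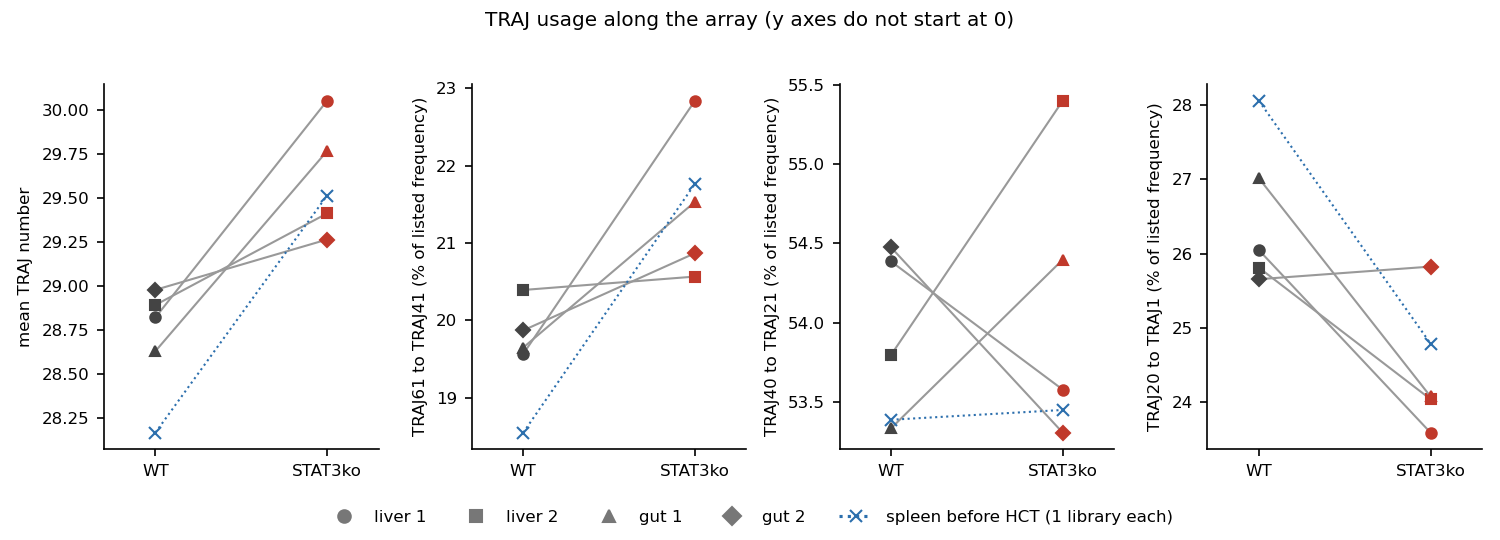
Mean TRAJ number and the share of listed TCRA frequency in the 3 ranges of the TRAJ array, by genotype. Points are libraries, solid lines join the 4 day 6 pairs, and crosses joined by a dotted line are the spleen libraries. All 4 STAT3ko libraries lie above all 4 WT libraries in mean TRAJ number and in the share of TRAJ41 to TRAJ61.

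Clonotypes of different kinds were then examined to see where in the repertoire this difference lay. These divisions were chosen after the overall difference was seen. Among clonotypes listed at 0 in the spleen libraries of all 3 genotypes, which held 21.7% ± 9.98 of the frequency in WT and 22.0% ± 12.7 in STAT3ko, the mean TRAJ number was 29.6, 29.4, 29.5 and 29.9 in WT and 31.5, 30.3, 30.5 and 31.3 in STAT3ko, a difference of 1.29 ± 0.440 (higher in 4 of 4 pairs, exact permutation p = 0.13). Among clonotypes above 0 in a spleen library it was 0.644 ± 0.655 and was higher in 3 of 4 pairs. The 100 most frequent clonotypes of each library had a mean TRAJ number of 25.9 ± 1.13 in WT and 25.8 ± 1.47 in STAT3ko, higher in 2 of 4 pairs, whereas the remaining clonotypes had 29.2 ± 0.154 and 30.2 ± 0.214, higher in 4 of 4 pairs. The higher TRAJ number was thus measured in the many less frequent clonotypes and not in the most frequent ones, and the difference between these classes was not itself tested. TRAV17, TRAV19 and TRAV21-DV12, which lie near the J array (as do TRAV18, TRAV20 and TRAV23, not included here), took 3.75% ± 0.266 in WT and 4.12% ± 0.5005 in STAT3ko, higher in 3 of 4 pairs. These V segments joined to TRAJ41 to TRAJ61, however, took 3.22% ± 0.316 in WT and 3.08% ± 0.376 in STAT3ko, higher in 2 of 4 pairs (exact permutation p = 0.5). Among all other TRAV segments the mean TRAJ number was still higher in STAT3ko in 4 of 4 pairs, by 0.820 ± 0.522.

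Single TRAJ segments were then tested. Of 40 segments that took on average 0.5% or more, limma's test with the pair as a block and Benjamini-Hochberg adjustment called 0 (0%) at an adjusted p under 0.05 (3 with each clonotype counted once). At an unadjusted p under 0.05 there were 4 (10%), 2 higher and 2 lower. Usage was higher in STAT3ko in all 4 pairs for 5 segments (12.5%) and lower for 3 (7.5%). By range, 10 of 13 segments of TRAJ41 to TRAJ61 had a log2 difference above 0 (median 0.10), as had 9 of 16 of TRAJ21 to TRAJ40 (median 0.02) and 4 of 11 of TRAJ1 to TRAJ20 (median -0.11), against 23 of all 40 (median 0.04).

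TRAJ9 (chr14:54209393-54209450), in the range next to the constant gene, had the largest moderated t. It took 3.17%, 3.53%, 3.45% and 3.08% in the WT libraries of liver 1, liver 2, gut 1 and gut 2 and 2.81%, 2.72%, 2.75% and 2.27% in STAT3ko. Every STAT3ko library lay below every WT library, a log2 difference of -0.32 with an SE of 0.0838 (limma, adjusted p = 0.196). TRAJ12 (chr14:54206553-54206610), nearby, was also lower in all 4 pairs, at 3.48% in WT and 2.97% in STAT3ko (log2 difference -0.22, limma, adjusted p = 0.372). At the other end, TRAJ56 (chr14:54159263-54159325) was higher in all 4 pairs, at 1.89% and 2.14%, and so was TRAJ45 (chr14:54172828-54172890), at 0.799% and 0.942% (log2 differences 0.16 and 0.22, limma, adjusted p = 0.372 each). With each clonotype counted once, the sign of TRAJ45 changed. In the spleen libraries TRAJ9 took 4.46% in WT and 4.17% in STAT3ko, TRAJ56 1.21% and 1.99%, TRAJ45 0.896% and 1.08%, and TRAJ12 3.05% in each. The 3 most used segments, TRAJ31, TRAJ27 and TRAJ23, lay in the middle range and took 7.57%, 5.61% and 5.64% in WT and 6.79%, 5.55% and 5.36% in STAT3ko, with no direction shared by all 4 pairs.

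**Figure D3:**
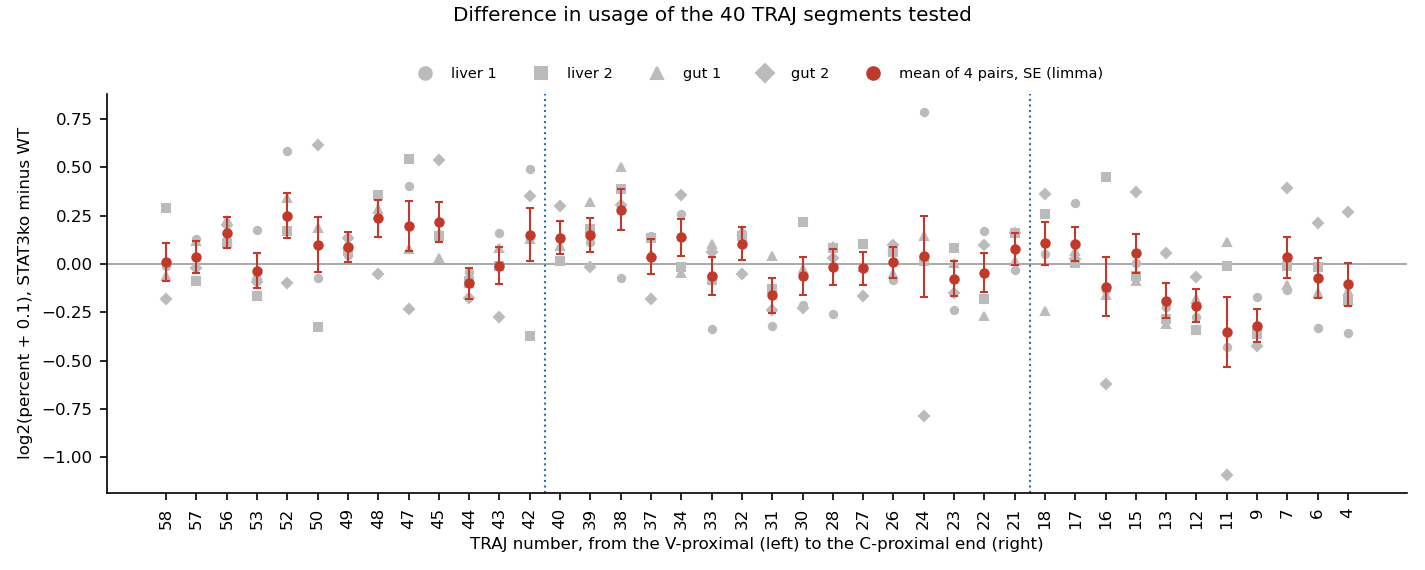
Log2 difference (STAT3ko minus WT) in usage of each of the 40 TRAJ segments tested, in the order of the array from the V end to the constant gene. Red points with bars are means of the 4 pairs with SEs from limma, and grey points are the single pairs. More segments lie above 0 at the V end (10 of 13) than next to the constant gene (4 of 11), and none passed adjustment.

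In the beta chain, which has no such serial array, the TRBJ2 cluster took 67.1%, 65.6%, 62.8% and 61.7% in the WT libraries of liver 1, liver 2, gut 1 and gut 2 and 67.6%, 64.9%, 62.7% and 63.9% in STAT3ko, higher in 2 of 4 pairs (difference 0.502 ± 1.26 percentage points, exact sign-flip permutation p = 0.750). The difference varied with the clonotypes counted. Among the 100 most frequent clonotypes, TRBJ2 took 67.4% ± 3.33 in WT and 72.6% ± 1.35 in STAT3ko, higher in 4 of 4 pairs (exact permutation p = 0.13), and among the remaining clonotypes it took 63.8% ± 2.42 and 63.3% ± 2.53, higher in 1 of 4 pairs (exact permutation p = 0.250). Among clonotypes at 0 in all spleen libraries it took 63.3% ± 1.72 and 62.1% ± 1.79, lower in 4 of 4 pairs, and among those above 0 in a spleen library 64.9% ± 2.86 and 67.0% ± 1.73, higher in 4 of 4 pairs (exact permutation p = 0.13 each). These divisions were chosen after the data were seen.

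Of the 12 TRBJ segments, limma called 0 (0%) at an adjusted p under 0.05 and 1 (8.33%) at an unadjusted p under 0.05, and 1 (8.33%) was higher and 2 (16.7%) were lower in all 4 pairs. TRBJ2-2 (chr6:41542957-41543007) took 6.05%, 6.07%, 6.31% and 5.43% in WT and 6.32%, 6.49%, 6.51% and 7.42% in STAT3ko. Its STAT3ko values all lay above its WT values, though the margin in gut 1 was small (log2 difference 0.16, limma, adjusted p = 0.272). TRBJ1-2 (chr6:41534001-41534048) was lower in all 4 pairs, at 4.32% in WT and 3.92% in STAT3ko (log2 difference -0.13, limma, adjusted p = 0.272), as was TRBJ2-1 (chr6:41542754-41542803), at 9.28% and 8.88% (log2 difference -0.07, adjusted p = 0.504). In spleen these 3 segments differed in the same directions, TRBJ2-2 being 5.86% in WT and 6.60% in STAT3ko, TRBJ1-2 4.27% and 3.81%, and TRBJ2-1 9.86% and 8.86%. TRBJ2-7, TRBJ1-1 and TRBJ2-5, the most used segments, took 17.6%, 12.1% and 11.8% in WT and 18.03%, 12.5% and 11.6% in STAT3ko.

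V-J pairs were tested because a clone or a family of related clones shows first in the combination of its segments. Among 239 TCRA V-J pairs with a mean usage of at least 0.1%, limma called 0 (0%) at an adjusted p under 0.05 and 21 (8.79%) at an unadjusted p under 0.05. There were 19 pairs (7.95%) higher and 25 (10.5%) lower in STAT3ko in all 4 library pairs. Among 188 TCRB V-J pairs it called 0 (0%), with 18 (9.57%) at an unadjusted p under 0.05, 25 (13.3%) higher and 21 (11.2%) lower in all 4 library pairs. The smallest adjusted p was 0.115 for TCRA and 0.182 for TCRB. Whether the genotype difference was the same in liver and gut was tested by an interaction term, which called 0 (0%) V-J pairs in either chain (smallest limma adjusted p = 0.947 and 0.841), with 7 (2.93%) and 4 (2.13%) at an unadjusted p under 0.05. Single pairs of libraries decided some of these counts: without gut 1, which leaves 1 pair in gut that is assumed to vary as the liver pairs do, the interaction called 21 TCRB pairs, without gut 2 the genotype test called 4 TCRB pairs, and without liver 2 it called 1 TCRA pair.

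TRAV7-5 with TRAJ17 differed most among the TCRA pairs that were higher. It took 0.0628%, 0.0932%, 0.124% and 0.231% in the WT libraries of liver 1, liver 2, gut 1 and gut 2 and 0.417%, 0.183%, 0.269% and 0.583% in STAT3ko. Each STAT3ko library was well above its WT partner although WT gut 2 exceeded STAT3ko liver 2 (log2 difference 1.45 with an SE of 0.334, limma, adjusted p = 0.115). TRAV5-4 with TRAJ52 took 0.0629% in WT and 0.145% in STAT3ko (log2 difference 1.03, limma, adjusted p = 0.235). Both combinations were also higher in the STAT3ko spleen library, at 0.107% in WT and 0.548% in STAT3ko, and at 0.0523% and 0.155%.

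TRAV14D-3-DV8 with TRAJ9 led the TCRA pairs that were lower, and it holds the TRAJ segment that differed most. Its share was 0.180%, 0.402%, 0.263% and 0.245% in WT and 0.113%, 0.103%, 0.117% and 0.0785% in STAT3ko, with no overlap (log2 difference -1.28 with an SE of 0.313, limma, adjusted p = 0.115). TRAV5-4 with TRAJ49 took 0.142% in WT and 0.0589% in STAT3ko, again with no overlap (log2 difference -1.05, limma, adjusted p = 0.235). The sign of the latter changed with each clonotype counted once. In spleen the TRAJ9 and TRAJ49 pairs took 0.414% in WT and 0.0991% in STAT3ko, and 0.117% and 0.0334%. The most used TCRA pairs, TRAV7D-2 with TRAJ22 and TRAV7-5 with TRAJ31 and with TRAJ23, took 0.635%, 0.755% and 0.743% in WT and 0.688%, 0.564% and 0.571% in STAT3ko, each higher in 1 of 4 library pairs. By array range, the 40 TCRA pairs with TRAJ41 to TRAJ61 had a median log2 difference of 0.21 (25 of 40 above 0), while it was -0.07 for the 143 pairs with TRAJ21 to TRAJ40 (61 above 0) and -0.07 for the 56 pairs with TRAJ1 to TRAJ20 (25 above 0), against -0.03 for all 239 (111 above 0).

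In TCRB, TRBV15 with TRBJ1-4 took 0.108%, 0.130%, 0.160% and 0.197% in the WT libraries of liver 1, liver 2, gut 1 and gut 2 and 0.281%, 0.453%, 0.363% and 0.384% in STAT3ko. The groups did not overlap (log2 difference 1.27 with an SE of 0.245, limma, adjusted p = 0.182). TRBV29 with TRBJ2-4 was 0.145% in WT and 0.329% in STAT3ko (log2 difference 1.06, limma, adjusted p = 0.239), and both were also higher in the STAT3ko spleen (0.137% and 0.344%, and 0.0967% and 0.338%). The 2 TCRB pairs that were lower with the largest moderated t both had TRBV14. With TRBJ2-3 it took 0.409%, 0.461%, 0.307% and 0.423% in WT and 0.212%, 0.268%, 0.138% and 0.230% in STAT3ko, with no overlap (log2 difference -0.91, limma, adjusted p = 0.239). With TRBJ1-4 it took 0.487% and 0.260% (log2 difference -1.005, adjusted p = 0.239), but in spleen that pair was higher in STAT3ko (0.361% in WT and 0.971% in STAT3ko). The most used pairs were TRBV16 with TRBJ2-7, at 3.04% in WT and 2.76% in STAT3ko, TRBV26 with TRBJ1-1, at 2.75% and 2.52%, and TRBV26 with TRBJ2-7, at 2.61% and 2.29%, the last being lower in all 4 library pairs.

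The TCRB pairs were also grouped by V segment. All 5 TRBV12-2 pairs (median log2 difference -0.42) and all 3 TRBV17 pairs (median -0.20) lay below 0. Of all 188 pairs, 107 lay below 0 (median -0.06). Of the 11 TRBV14 pairs, 10 had a log2 difference below 0 (median -0.30, 4 lower in all 4 library pairs), as had 11 of 12 TRBV16 pairs (median -0.32, 4 lower in all), 11 of 12 TRBV26 pairs (median -0.19, 2 lower in all), 8 of 12 TRBV1 pairs (median -0.21, 3 lower in all) and 8 of 10 TRBV23 pairs (median -0.11, 0 lower in all). TRBV13-2 had 8 of 11 pairs above 0 (median 0.39, 5 higher in all), TRBV13-3 8 of 12 (median 0.14, 3 higher in all) and TRBV20 6 of 9 (median 0.51, 3 higher in all). TRBV4 had 8 of 11 above 0 (median 0.13, 1 higher in all), whereas TRBV13-1 had 8 of 12 below 0 (median -0.11, 1 lower in all). J partners of a V segment are not independent, since usage sums to 100% within a library, and these V segments were named after their values were seen.

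**Figure D4:**
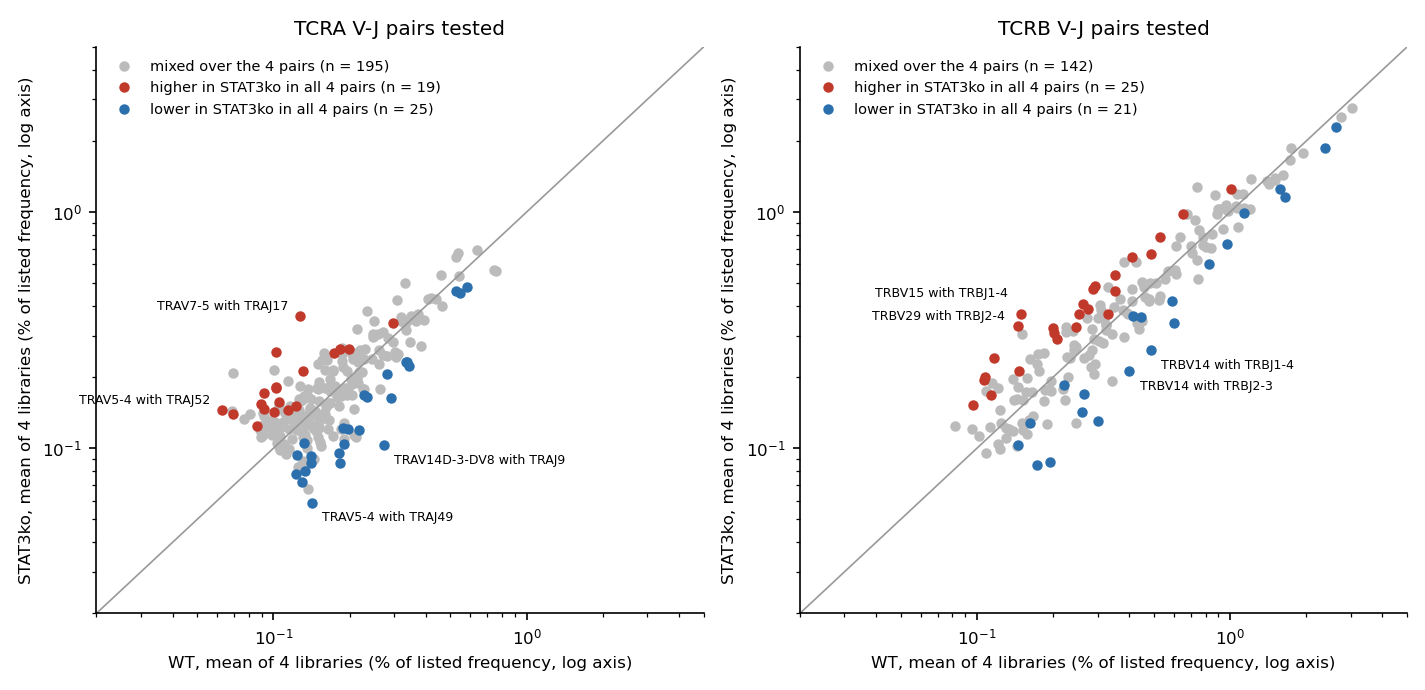
Mean usage of each V-J pair in the 4 WT (horizontal axis) and 4 STAT3ko libraries (vertical axis), in percent of listed frequency on log axes, for TCRA (239 pairs) and TCRB (188 pairs); the line marks equal usage and colours mark pairs that moved the same way in all 4 library pairs. The named pairs lie farthest from the line in their direction by moderated t, and none passed adjustment.

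The 1-library spleen comparison was set beside the day 6 differences. Of the TCRA V-J pairs higher in STAT3ko in all 4 library pairs, 84.2% (16 of 19) were also higher in the STAT3ko spleen, as were 36% of the 25 that were lower, against 49.8% of all 239. For TCRB these shares were 60.0%, 28.6% and 47.9%. Liver 1 shares much of its frequency with spleen, and without it the shares for pairs higher and lower in the other 3 library pairs were 65.6% and 48.8% in TCRA, and 57.6% and 48.5% in TCRB. For pairs higher or lower in both library pairs of number 2 they were 47.5% (28 of 59) and 51.6% (33 of 64) in TCRA, and 49.0% and 58.5% in TCRB, near the 49.8% and 47.9% of all pairs tested except for the last. Of the TCRA clonotypes listed in all 8 libraries, described further on, 72.9% of those higher in all 4 pairs were higher in STAT3ko spleen, 57.8% of those higher without liver 1 and 53.0% of those higher within number 2, against 55.1% of all. The same shares were 72.0%, 58.1%, 48.0% and 47.3% for TCRB clonotypes, and 80.0%, 75.0%, 70.0% and 60.0% for TRAJ segments, of which only 5, 8 and 10 were so selected.

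CDR3 length, set by trimming and added nucleotides at the joint, differed little on average. The mean TCRA CDR3 was 13.4 residues long in each genotype (difference 0.00700 ± 0.0199 residues, higher in 2 of 4 pairs, exact permutation p = 0.750), and that of TCRB was 13.7 (difference 0.00544 ± 0.0375, higher in 2 of 4 pairs, exact permutation p = 0.875). The spread of TCRA lengths within a library was wider in STAT3ko in 4 of 4 pairs, with an SD of 1.19 residues in WT and 1.23 in STAT3ko (exact permutation p = 0.13).

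One short CDR3 length, of 10 residues, was more frequent in STAT3ko in the alpha chain. Of 8 TCRA lengths tested, limma called 1 (12.5%), with 2 (25%) at an unadjusted p under 0.05. CDR3s of 10 residues took 0.936%, 0.775%, 0.793% and 0.803% in the WT libraries of liver 1, liver 2, gut 1 and gut 2 and 0.982%, 1.25%, 0.994% and 1.07% in STAT3ko. Every STAT3ko value lay above every WT value, and the share rose by a log2 difference of 0.34 with an SE of 0.0855 (limma, adjusted p = 0.0436). The call was lost without liver 2 (adjusted p = 0.0564) or gut 2 (0.421), with a pseudocount of 0.01, with rare lengths kept in the test, and with each clonotype counted once, where the log2 difference was -0.0016; over the alternatives the adjusted p ranged from 9.80e-06 to 0.956. CDR3s of 10 residues with TRAJ31 gave 0.0773 of the 0.247 percentage points of the difference, those with TRAJ33 0.0536 (both higher in 4 of 4 pairs), those with TRAJ39 0.0261 (higher in 1 of 4 pairs) and those with TRAJ49 0.0231 (higher in 4 of 4). CDR3s of 11 residues, the next length, were 3.51% in WT and 3.44% in STAT3ko, higher in 2 of 4 pairs (limma, adjusted p = 0.837). Long CDR3s of 16 residues were 3.18% in WT and 3.58% in STAT3ko, higher in 3 of 4 pairs (limma, adjusted p = 0.159), and those of 13 residues, the commonest length, were 34.9% and 33.7%, lower in 3 of 4 pairs.

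Of 7 TCRB lengths, limma called 0 (0%) at an adjusted p under 0.05 (1 without liver 1) and 1 (14.3%) at an unadjusted p under 0.05. CDR3s of 16 residues took 5.24%, 4.501%, 5.01% and 1.79% in WT and 5.64%, 6.15%, 5.96% and 2.71% in STAT3ko. They were more frequent in 4 of 4 pairs, and gut 2 of both genotypes lay far below the other libraries (log2 difference 0.34 with an SE of 0.0886, limma, adjusted p = 0.0732). TRBV5 gave 0.345 of the 0.981 percentage points (higher in 4 of 4 pairs), TRBV23 0.213 (higher in 3 of 4) and TRBV1 0.187 (higher in 4 of 4). TCRB CDR3s of 14 residues, the commonest length, took 34.4% in WT and 32.5% in STAT3ko, lower in 3 of 4 pairs (adjusted p = 0.639).

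Residues were counted in the CDR3 core, the part without the first 3 and last 3 residues, where contacts with the peptide are mostly made. Mean core hydropathy on the Kyte-Doolittle scale, where higher is more hydrophobic, was -1.54 ± 0.0252 in WT and -1.53 ± 0.0145 in STAT3ko for TCRA (exact permutation p = 0.875). For TCRB it was -1.33 ± 0.0370 and -1.36 ± 0.0188, lower in 3 of 4 pairs (exact permutation p = 0.250). Mean core net charge, with K and R as plus and D and E as minus, was 0.723 ± 0.0238 and 0.731 ± 0.0250 for TCRA (exact permutation p = 0.375) and -0.700 ± 0.0125 and -0.696 ± 0.0403 for TCRB (exact permutation p = 1.00). The alpha cores were thus basic and the beta cores acidic in both genotypes.

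Of the 20 TCRA core residues, limma called 2 (10%) at an adjusted p under 0.05, the same number as at an unadjusted p under 0.05 (10%). Histidine rose, from 0.315%, 0.336%, 0.347% and 0.301% of core residues in the WT libraries of liver 1, liver 2, gut 1 and gut 2 to 0.347%, 0.392%, 0.378% and 0.343% in STAT3ko (log2 difference 0.13 with an SE of 0.0296, limma, adjusted p = 0.0344). Methionine fell, from 1.28%, 1.25%, 1.30% and 1.27% to 1.17%, 1.09%, 1.23% and 1.17%, with no overlap between the groups (log2 difference -0.12 with an SE of 0.0306, limma, adjusted p = 0.0344). Split by J segment, cores joined to TRAJ9 gave -0.0990 of the -0.111 percentage points of the methionine difference (lower in 4 of 4 pairs), those joined to TRAJ23 -0.0297, to TRAJ31 -0.0228 and to TRAJ43 0.0192. Methionine without TRAJ9 was not tested. For histidine TRAJ26 gave the largest contribution, 0.0125 of 0.0402 percentage points. Both calls ended when any replicate was left out and when the pairing was dropped, with adjusted p over the alternatives from 0.0318 to 0.327 for histidine and from 0.0378 to 0.236 for methionine. Alanine was 6.88% in WT and 7.18% in STAT3ko, with no overlap, and proline was 1.45% and 1.37%, lower in 4 of 4 pairs (limma, adjusted p = 0.469 each).

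Of the 20 TCRB core residues, limma called 1 (5%), with 3 (15%) at an unadjusted p under 0.05. Phenylalanine fell, from 1.21%, 1.23%, 1.06% and 0.834% in WT to 0.951%, 1.12%, 0.830% and 0.634% in STAT3ko (log2 difference -0.28 with an SE of 0.0451, limma, adjusted p = 0.0295). It was lower in 4 of 4 pairs, although liver 2 of STAT3ko lay above gut 1 and gut 2 of WT. TRBV14 clonotypes, whose V-J pairs were mostly lower in STAT3ko, gave -0.118 of the -0.198 percentage points, lower in 4 of 4 pairs, and TRBV16 gave -0.0480. The call was lost without liver 1, gut 1 or gut 2 (adjusted p = 0.200, 0.370 and 0.117), without the pairing, with a pseudocount of 0.01, with each clonotype counted once, and when all CDR3s were used, and the adjusted p ranged from 0.00656 to 0.727 over the alternatives.

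Cysteine, rare in TCR cores, was 0.00216% in WT and 0.0105% in STAT3ko and higher in 4 of 4 pairs, lysine was 0.431% and 0.499%, higher in 3 of 4, and methionine was 0.121% and 0.106%, lower in 4 of 4 (limma, adjusted p = 0.260, 0.341 and 0.260). The sign changed for cysteine with all CDR3s and for methionine with each clonotype counted once. By residue group, glycine was 16.2% ± 0.261 in WT and 16.8% ± 0.445 in STAT3ko in the beta chain, higher in 4 of 4 pairs. The hydroxyl residues serine and threonine were 27.6% ± 1.09 and 27.2% ± 1.13, and the aliphatic residues 12.1% ± 0.645 and 11.7% ± 0.591, both lower in 4 of 4 pairs (exact permutation p = 0.13 each). In the alpha chain the aliphatic residues were higher in 4 of 4 pairs, at 11.4% ± 0.294 and 11.6% ± 0.156 (exact permutation p = 0.13), and the aromatic, acidic, basic, amide and hydroxyl groups and glycine had no direction shared by all pairs.

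**Figure D5:**
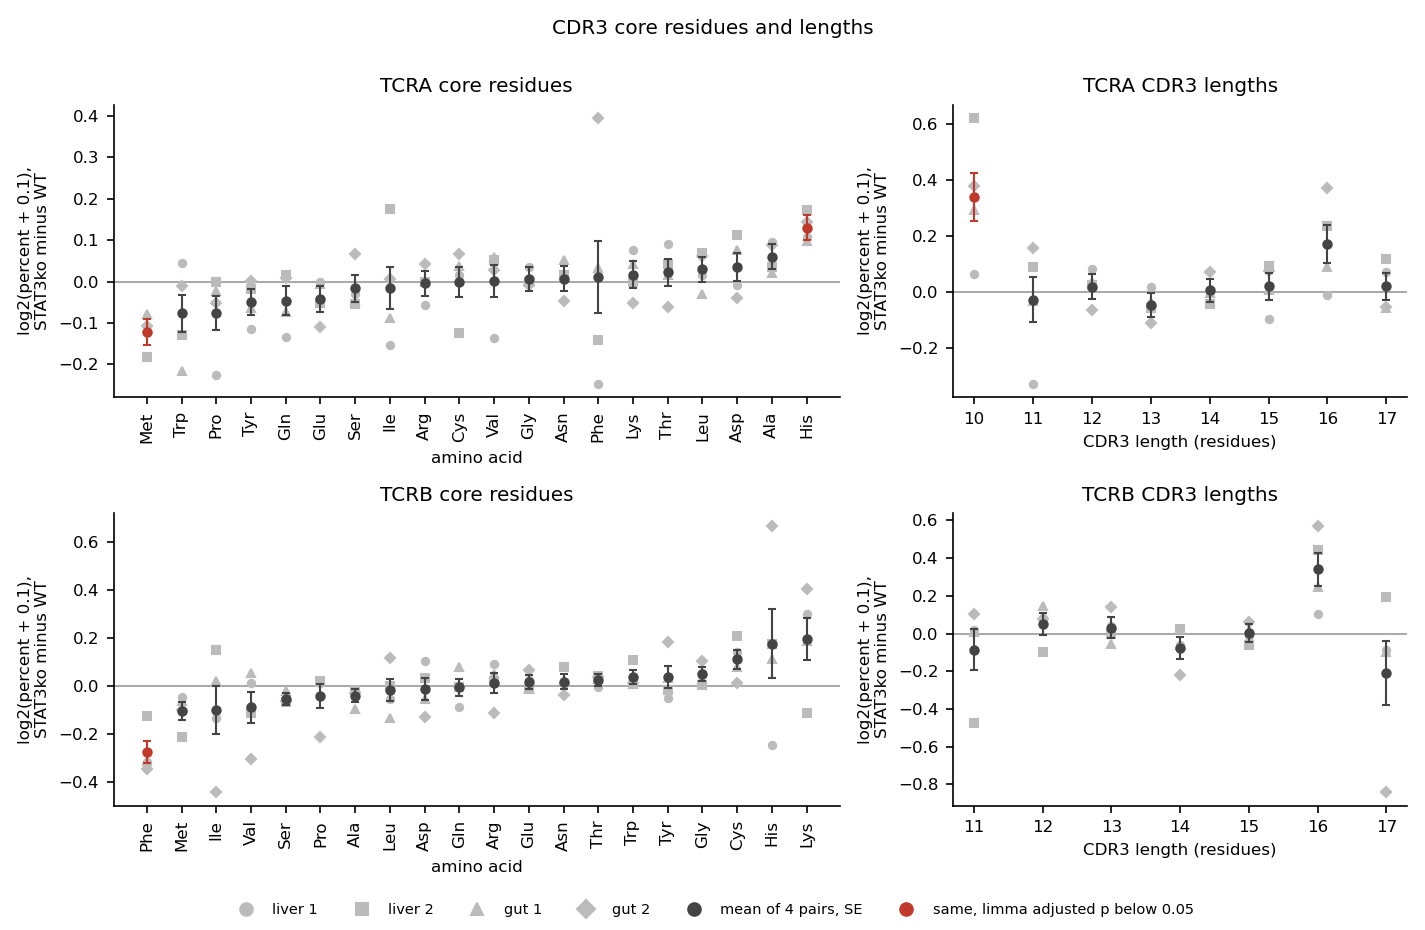
Log2 difference (STAT3ko minus WT) in the share of each CDR3 core residue and each CDR3 length tested, for TCRA and TCRB. Bars are SEs from limma, red marks are the calls at an adjusted p under 0.05, and light grey points are the single pairs. The calls are histidine, methionine and a length of 10 residues in TCRA, and phenylalanine in TCRB.

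Shared clonotypes, those listed above 0 in all 8 libraries, were the part of the repertoire in which the genotypes could be compared receptor by receptor. There were 1653 in TCRA, holding 29.1% to 43.3% of the listed frequency of a library, and 273 in TCRB, holding 3.43% to 13.3%. Limma called 0 (0%) of the TCRA clonotypes at an adjusted p under 0.05 and 131 (7.92%) at an unadjusted p under 0.05 (smallest adjusted p = 0.574). It called 0 (0%) of the TCRB clonotypes and 23 (8.42%) at an unadjusted p under 0.05 (smallest adjusted p = 0.238), and it called 5 without gut 2. In TCRA 129 (7.8%) were higher and 143 (8.65%) lower in STAT3ko in all 4 pairs, and in TCRB 25 (9.16%) were higher and 20 (7.33%) lower.

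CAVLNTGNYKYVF, the first of the sequences shown above, was at 0.000266%, 0.000258%, 0.00143% and 0.000543% in the WT libraries of liver 1, liver 2, gut 1 and gut 2 and at 0.0404%, 0.00452%, 0.0136% and 0.00759% in STAT3ko. All STAT3ko values lay above all WT values (log2 difference 4.61 with an SE of 0.863, limma, adjusted p = 0.574), and the clonotype was listed at 0 in WT spleen and at 0.0134% in STAT3ko spleen. The WT values of liver 1 and liver 2 were at the smallest step of these libraries, so the size of the difference is uncertain. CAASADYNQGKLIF took 0.00111% in WT and 0.0119% in STAT3ko, also with no overlap (log2 difference 3.33, limma, adjusted p = 0.574). Its WT values were at a few steps only.

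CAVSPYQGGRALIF was at 0.112%, 0.123%, 0.0426% and 0.0442% in WT and at 0.0104%, 0.00392%, 0.0163% and 0.00338% in STAT3ko. In WT it was the most frequent of the 4 TCRA clonotypes chosen for their difference, and all its STAT3ko values lay below its WT values (log2 difference -3.37 with an SE of 0.816, limma, adjusted p = 0.574). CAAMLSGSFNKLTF took 0.0148% in WT and 0.000898% in STAT3ko, with no overlap (log2 difference -3.75, limma, adjusted p = 0.574). Its STAT3ko values were at a few steps only. In spleen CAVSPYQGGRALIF took 0.0738% and 0.0262%, and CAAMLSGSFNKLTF 0.00488% and 0.000581%.

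Of the 4 TCRB clonotypes named for their difference, 3 carried TRBV16 and the other was a TRBV26 sequence that began upstream of the cysteine. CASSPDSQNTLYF was at 0.00352%, 0.00276%, 0.000598% and 0.00106% in WT and 0.0385%, 0.0146%, 0.0185% and 0.0244% in STAT3ko, with no overlap (log2 difference 3.83 with an SE of 0.858, limma, adjusted p = 0.238). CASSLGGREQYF took 0.00112% in WT and 0.0123% in STAT3ko (log2 difference 3.46, limma, adjusted p = 0.238), and was listed at 0 in WT spleen and at 0.0154% in STAT3ko spleen. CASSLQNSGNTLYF took 0.0435% and 0.00746% (log2 difference -2.50, adjusted p = 0.572), and the TRBV26 sequence, with TRBJ1-1, took 0.0334% and 0.00643% (log2 difference -2.70, adjusted p = 0.572).

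Of the 6 most frequent shared clonotypes (3 per chain), 5 had no direction shared by all pairs. In TCRA, a clonotype of TRAV14N-3 with TRAJ13, CAASDYSNNRLTL (TRAV14N-3 with TRAJ7) and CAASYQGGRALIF (TRAV7D-4 with TRAJ15) took 0.270%, 0.289% and 0.233% in WT and 0.417%, 0.263% and 0.276% in STAT3ko, each higher in 2 of 4 pairs. In TCRB, YAEQFF, a short TRBV21 sequence that is not of the usual form, took 0.776% and 0.786%. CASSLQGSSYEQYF (TRBV14 with TRBJ2-7) was at 0.0704%, 0.0133%, 0.0335% and 0.102% in WT and 0.116%, 0.0362%, 0.0486% and 0.377% in STAT3ko, higher in 4 of 4 pairs (log2 difference 1.15, limma, adjusted p = 0.746). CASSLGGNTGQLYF (TRBV16 with TRBJ2-2) reached 0.833% in STAT3ko gut 2 and lay between 0.00469% and 0.0255% in the other 7 libraries.

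Invariant T cells were looked for by their segments. TRAV11 with TRAJ18, the alpha chain of invariant natural killer T cells, took 0.0450%, 0.0790%, 0.0513% and 0.0193% in WT and 0.108%, 0.0868%, 0.0376% and 0.0346% in STAT3ko, higher in 3 of 4 pairs (exact permutation p = 0.375), and in spleen 0.00557% and 0.0925%. The groups overlapped. TRAV1 with TRAJ33, the alpha chain of mucosal-associated invariant T cells, was at most 0.00419% in any day 6 library and was listed at 0 in 1 of 4 WT and 2 of 4 STAT3ko libraries.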

How the data were processed

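TCRA and TCRB transcripts of donor CD4+ T cells were amplified by the authors with a 5′ template-switching kit and sequenced as read pairs. Clonotypes were called with MiXCR and the libraries of a chain were joined with VDJtools, in which a clonotype had to be found in at least 2 of the 18 libraries of the join. The joined tables, as the authors deposited them, hold the fraction of a library's reads for each clonotype (0 to 1) in 15 library columns. Fractions were formed before the join, so listed fractions sum to less than 1, and here they were divided by their sum in each library. Per the labels the build was mm10, and segment positions came from GENCODE release 21 of the mouse. Read counts are not given, so depth is not stated, and a fraction of reads is not a fraction of cells. The study's methods speak of 2 batches, each from 3 mice, and no source used here says which replicate number belonged to which batch.

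Groups came from the labels. Summary values were compared by an exact two-sided sign-flip permutation test over the 4 pairs (16 arrangements), with Benjamini-Hochberg adjustment over 12 values. J segments (mean usage of at least 0.5%), CDR3 lengths (at least 0.5%) and core residues were tested on log2(percent + 0.1), V-J pairs (at least 0.1%) on log2(percent + 0.01), and clonotypes listed in all 8 libraries on log2(percent), with limma 3.58.1 in R 4.3.3 and the pair as a block. Adjustment covered all features of a family, and a call was an adjusted p under 0.05. Differences on these scales understate the change of rare features. Tables were built with Python 3.11.15 and pandas 2.3.3, and the fits were tested on simulated data. Whether these batches were separate transplant experiments is not stated in the sources used here, so p-values measure the spread between these pooled samples. Nor is it stated whether liver and gut of the same number came from the same recipients. If they did, the 4 pairs are not independent, as the sign-flip and limma tests take them to be. The features named were the calls, the 2 highest and 2 lowest by moderated t (for J segments, V-J pairs and clonotypes among those moved the same way in all 4 pairs), the 3 most used J segments, V-J pairs and shared clonotypes, the TRAJ ranges, TRBJ clusters and invariant segments. The members, lists and tests were chosen with earlier results of these data known.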

Additional observations from a re-analysis of the deposited data

Results flagged for a closer look

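In groups of 4 libraries, 138 were searched for a value far from the other 3 by Dixon's test, and 8 values stood out, where chance alone gives about 5% of groups. Of these, 6 were in gut 2, of which 4 concerned TCRB CDR3 lengths. TCRB CDR3s of 16 residues were at 1.79% in WT gut 2 and 2.71% in STAT3ko gut 2, below the other libraries of their genotype, and those of 17 residues were at 0.0650% in STAT3ko gut 2. The mean TCRB CDR3 length was 13.5 residues in STAT3ko gut 2, below the other 3 STAT3ko libraries. These low values moved with the low listed share of gut 2 (47.8% and 49.1% of TCRB reads), and the part of that share in them was not tested. TCRA CDR3s of 13 residues were at 37.6% in WT gut 2. TRAJ9 was at 2.27% in STAT3ko gut 2, below 2.72% to 2.81% in the other STAT3ko libraries. In WT liver 1, TRAV7D-2 with TRAJ22 was at 0.466%, below the other WT libraries, and TCRA CDR3s of 11 residues were at 3.89%, above them.

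Among 69 results searched for opposite differences in liver and gut, 1 was found. The clonotype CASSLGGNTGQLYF (TRBV16 with TRBJ2-2) was lower in STAT3ko in both liver pairs and higher in both gut pairs, and its STAT3ko minus WT difference was 0.421 percentage points larger in gut than in liver. That difference was not tested, and it comes mostly from 1 library, STAT3ko gut 2, at 0.833%.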

How the results depend on the processing

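All rests on 4 pairs of pooled samples and on fractions without read counts. Most values kept their direction and side of the threshold: 163 of the values and counts that answer a comparison did so, 29 moved and 17 changed sign, and among values of single features the numbers were 459 unchanged, 26 weaker, 9 stronger and 25 with the sign changed. No cause of these changes was tested. The mean TRAJ number was higher in STAT3ko under each alternative run on it, from 0.402 with only the pairs of number 2 (chosen after seeing the data) to 1.29 without clonotypes in a spleen column, and from 0.647 to 0.961 when 1 replicate number of a tissue was left out, but not among the 100 most frequent clonotypes alone (-0.119).

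Replicate numbers were checked as a pairing. The correlation of same-numbered deviations from the group means was -0.12 and -0.18 (liver and gut) for TCRA J usage and 0.01 and 0.05 for TCRA V-J pairs. In TCRB it was -0.03 and 0.67 for J usage and 0.10 and 0.19 for V-J pairs. Except for TCRB J usage in gut, usage thus showed little that was shared by number. Closeness to spleen, however, went with number 1 in both tissues and both genotypes. Without the replicate block, the mean TRAJ number differed by 0.792 as in the paired test (exact permutation p = 0.0556), and 0 TCRA and 0 TCRB core residues were called in place of 2 and 1.

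With 1 replicate of a tissue left out, TCRA clonality differed by -0.00207 to 0.00462, TCRA mean CDR3 length by -0.00193 to 0.0132, TCRA hydropathy by -0.00749 to 0.0125, TCRB mean length by -0.0122 to 0.0156, TCRB net charge by -0.0105 to 0.00935 and the TRBJ2 share by -0.0806 to 0.900. Counts of calls were 0 to 1 TCRA V-J pairs (1 without liver 2), 0 to 2 TCRA lengths, 0 TCRA residues, 0 to 4 TCRB V-J pairs (4 without gut 2), 0 to 21 TCRB pairs with a tissue difference (21 without gut 1, with 1 gut pair left and its spread taken from liver), 0 to 1 TCRB lengths (1 without liver 1), 0 to 1 TCRB residues and 0 to 5 TCRB clonotypes (5 without gut 2). Single features whose log2 difference changed sign ranged from -0.065 to 0.025 (TRAJ27), -0.11 to 0.14 (TRAV7D-2 with TRAJ22), -0.33 to 0.31 (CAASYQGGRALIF), -0.010 to 0.065 (TRBJ2-7), -0.058 to 0.0026 (TRBJ2-5), -0.34 to 0.0022 (TCRB length 17) and -0.27 to 1.92 (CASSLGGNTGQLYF), each changed by leaving out gut 2, from -0.091 to 0.071 (TCRA length 11, by liver 1), and from -0.19 to 0.058 (CAASDYSNNRLTL) and -0.14 to 0.11 (YAEQFF), both by gut 1.

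With each clonotype counted once, TCRA mean length differed by -0.0208, TCRA hydropathy by -0.0146, TCRB length by -0.00317 and TCRB hydropathy by 0.00370. Then 3 TCRA J segments were called (TRAJ11, TRAJ2 and TRAJ13, named after their values were seen, lower in all 4 pairs), 0 TCRA lengths, 1 TCRA residue, 2 TCRB lengths and 0 TCRB residues, and log2 differences changed sign for TRAJ27 (0.031), TRAJ45 (-0.083), TRAJ31 (0.056), TRAJ23 (0.014), TRAV5-4 with TRAJ49 (0.035), TRAV7-5 with TRAJ31 (0.23), TCRA lengths 10 (-0.0016), 16 (-0.097) and 13 (0.021), TRBJ2-1 (0.012), TRBJ2-7 (-0.028), TCRB length 17 (0.071) and TCRB methionine (0.0078). With clonotypes in at least 3 library columns, TCRA length differed by -0.00422, TCRB length by -0.00186 and TCRB charge by -0.00432. A core without 4 residues at each end gave a TCRA charge difference of -0.00170. With all CDR3s, TCRB length differed by -0.290, cysteine by -0.13 (log2), and 0 TCRB residues were called. A pseudocount of 0.01 gave 0 TCRA lengths, 1 TCRA residue and 0 TCRB residues, and one of 1 gave 0 TCRA residues and 1 TCRB length. Without the filter 0 TCRA lengths were called. As a share of all reads TRBJ2-5 differed by 0.015 (log2). The TRBJ2 share, in alternatives chosen after seeing the data, differed by -1.24 without clonotypes in a spleen column and by -0.512 without the 100 most frequent clonotypes.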

Other observations

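The third donor genotype of the study, deficient in both STAT3 and PD-1, was outside the comparison, but its TRAJ values are given beside the TRAJ differences between STAT3ko and WT. In its CD4 TCRA libraries the mean TRAJ number was 31.9 in liver 1, 30.7 in liver 2, 31.2 in gut 1 and 30.4 in gut 2, each above all 8 WT and STAT3ko libraries. The share of TRAJ41 to TRAJ61 was 26.7%, 25.1%, 25.2% and 23.0%, and in its spleen library these values were 31.5 and 25.6%. No test was made of these levels.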
